A study of Mus musculus with 12 samples.

Results

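The genes described here encode the constitutive proteasome, and were taken as every row of the deposited tables whose symbol begins Psma, Psmb, Psmc or Psmd followed by a number, leaving out Psmb8, Psmb9, Psmb10 and Psmb11 of the immune and thymic proteasome. There were 35 such genes among 24346 rows. They were 15 core genes (8 of the outer alpha rings and 7 of the inner beta rings), 17 cap genes (6 ATPases and 11 non-ATPase subunits) and 3 assembly chaperones of the cap, Psmd5, Psmd9 and Psmd10. The cap subunits Adrm1 and Shfm1 have other symbols and are not among the members. All 35 passed the filter on low counts.

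The libraries came from midbrain of C57BL/6 mice. The synuclein groups had received preformed fibrils of G51D alpha-synuclein, a mutant protein linked to familial Parkinson's disease, injected into the substantia nigra on both sides (20 µg at 5 µg/µL), and the saline groups had received saline by the same route. Cells carrying the fluorescent protein hKO1, which marked dopaminergic neurons, were sorted after 7 or 12 weeks, which gave 3 libraries in each of 4 groups: synuclein at 7 weeks, saline at 7 weeks, synuclein at 12 weeks and saline at 12 weeks. The construct that drives hKO1, the age of the mice and any pooling of animals are not given in the sources used here, and the labels do not say whether each library is another animal. The p-values therefore cover variation among libraries, which may be technical.

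The proteasome is the main protease of the cytosol and nucleus and degrades proteins tagged with ubiquitin. Its barrel-shaped core holds the proteolytic sites on 3 beta subunits, Psmb5 (chymotrypsin-like), Psmb6 (caspase-like) and Psmb7 (trypsin-like), and its outer alpha rings form the gate. The cap binds ubiquitin, removes it, and unfolds the substrate with its ring of ATPases. Alpha-synuclein is among the proteins it degrades, and the mammalian factor Nfe2l1 binds antioxidant response elements in the promoters of proteasome genes to raise their transcription together when proteolysis falls short.

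The promoters of the catalytic subunits Psmb5 and Psmb6, which hold the core of that element, are shown because Nfe2l1 acts through it. No promoter of Psmb7 was among those read, so it was not searched. The bases are the 100 upstream of the RefSeq start site on GRCm38.p6, written 5′ to 3′ along the gene, with the match to TGACNNNGC in capitals. They lie at chr14:54617996-54618095 on the minus strand for Psmb5 and at chr11:70525257-70525356 on the plus strand for Psmb6.
Psmb5: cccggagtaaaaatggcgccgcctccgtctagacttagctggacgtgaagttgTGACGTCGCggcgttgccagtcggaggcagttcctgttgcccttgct
Psmb6: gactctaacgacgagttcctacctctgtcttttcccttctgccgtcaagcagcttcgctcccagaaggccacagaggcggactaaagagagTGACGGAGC
The match began 47 bases before the start site in Psmb5 and 9 bases before it in Psmb6. In the 300-base windows of the RefSeq table (250 bases before to 50 after the start), 28 of the 35 members were found. TGACNNNGC on either strand was held by 5 of the 28 (17.9%), which were Psmb5, Psmb6, Psmc6, Psmd9 and Psmd12, against 14% of 27025 genes. CCAAT, the box bound by the factor NF-Y, was held by 11 of the 28 (39.3%), against 41.1% of all genes. The share of members with either motif was thus close to that of all genes.

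Libraries held an estimated 2506730 to 5533324 assigned fragments, with saline replicate 3 at 7 weeks the deepest by this estimate. Markers of dopaminergic neurons (Th, Slc6a3, Slc18a2 and Ddc) summed to 451 to 2046 counts scaled to library size (CPM) over the 12 libraries, and 5 oligodendrocyte markers summed to 14771 to 40487 CPM, so markers of another cell type outweighed those of the sorted type in every library. Endothelial markers summed to 5005 to 11289 CPM and microglial markers to 31.6 to 367 CPM. In the synuclein group of 12 weeks, replicate 2 detected 17409 genes (the rest of the series 19960 to 21135), and replicate 1 of that group had the highest sum of ependymal markers (262 CPM, against 3.57 CPM in replicate 2).

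All proteasome genes but 1 were expressed well above the typical gene. Their mean FPKM (fragments scaled to gene length and library size, deposited by the authors, averaged over the 12 libraries) had a median of 114, against 6.71 over the 17380 genes tested. By class the median of the mean FPKM was 272 for the beta rings, 182 for the alpha rings, 137 for the ATPase ring, 63.2 for the non-ATPase cap and 28.0 for the cap chaperones. The exception was Psma8, which in mouse replaces Psma7 in the testis core: it averaged 5.79 FPKM, with 3 fragments in its lowest library. Apart from Psma8, the lowest member was Psmd9 at 19.3 FPKM, still above 74.6% of the genes tested.

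**Figure D1:**
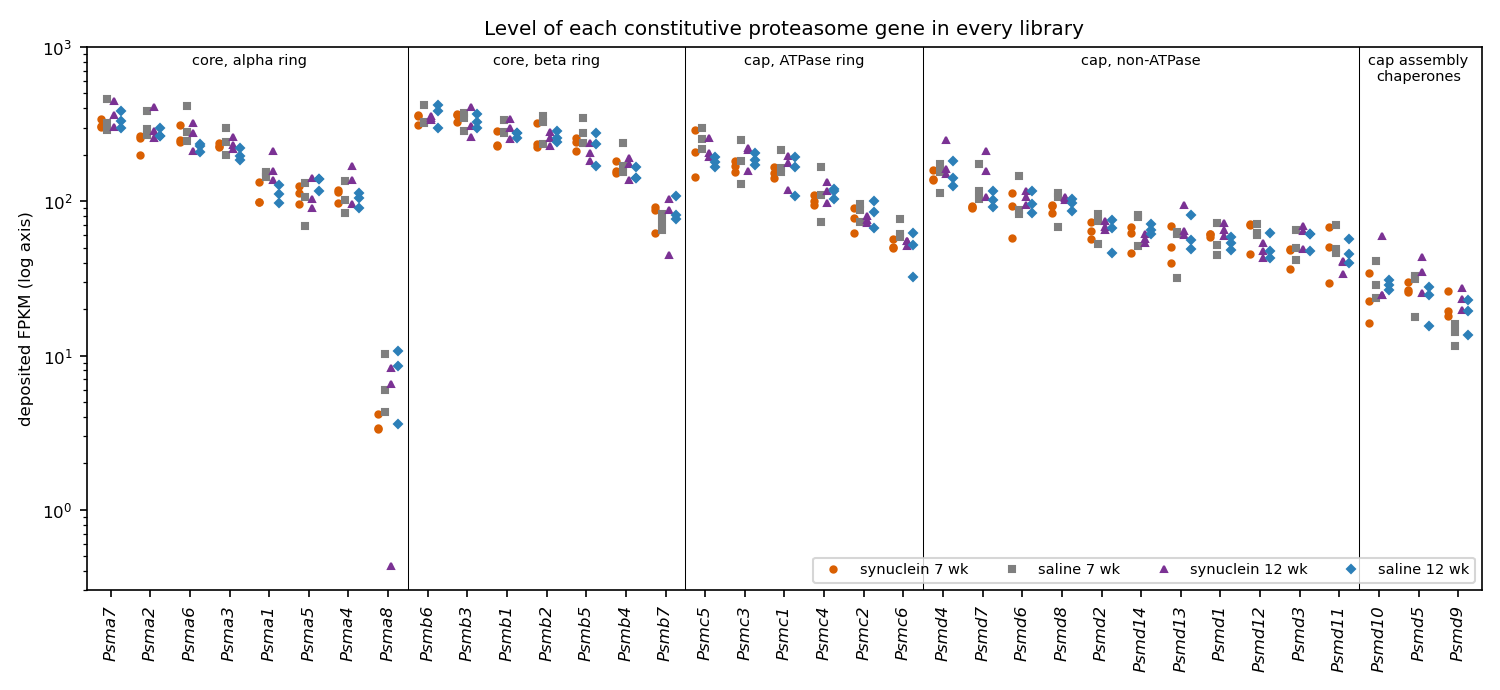
Deposited FPKM (vertical log axis) of each of the 35 members in each library, by class and, within a class, by mean level. Points are libraries, coloured by group. Core genes sit highest, with Psmb6 (mean 353 FPKM) and Psma7 (345 FPKM) at the top, and the 3 cap chaperones and Psma8 lowest.

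Among the core genes, the catalytic subunit Psmb6 was the most abundant member, with 358, 312 and 364 FPKM in synuclein libraries at 7 weeks, against 322, 325 and 420 FPKM in saline libraries. Its 12-week values were 346, 355 and 336 FPKM in synuclein libraries, against 421, 297 and 387 FPKM in saline libraries. The groups overlapped at both times, and the 3 synuclein libraries at 12 weeks were nearly alike. The chymotrypsin-like subunit Psmb5 had 258, 241 and 212 FPKM in synuclein libraries at 7 weeks, against 278, 240 and 346 FPKM in saline libraries. The 12-week values of Psmb5 were 183, 204 and 237 FPKM in synuclein libraries, against 276, 169 and 235 FPKM in saline libraries. Psmb5 was thus highest in replicate 3 of saline at 7 weeks, and its groups overlapped at both times. The trypsin-like subunit Psmb7 stood lowest of the beta rings, with 92.4, 87.7 and 61.9 FPKM in synuclein libraries at 7 weeks, against 73.2, 65.3 and 82.8 FPKM in saline libraries. For Psmb7 at 12 weeks these were 88.1, 44.6 and 103 FPKM in synuclein libraries, against 108, 77.2 and 81.5 FPKM in saline libraries. Its lowest value was in replicate 2 of synuclein at 12 weeks, the library with the fewest detected genes.

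Psma7 was the most abundant alpha subunit, with 309, 340 and 304 FPKM in synuclein libraries at 7 weeks, against 320, 289 and 458 FPKM in saline libraries. Psma7 at 12 weeks had 305, 445 and 360 FPKM in synuclein libraries, against 298, 333 and 385 FPKM in saline libraries. Both pairs of groups overlapped, and replicate 3 of saline at 7 weeks was again the highest. The remaining core genes, Psma8 aside, averaged between 114 FPKM (Psma4) and 336 FPKM (Psmb3).

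In the cap, the ATPase Psmc5 led its ring, with 291, 209 and 144 FPKM in synuclein libraries at 7 weeks, against 255, 219 and 300 FPKM in saline libraries. Psmc5 at 12 weeks had 193, 259 and 206 FPKM in synuclein libraries, against 192, 167 and 180 FPKM in saline libraries. Synuclein at 12 weeks lay above saline in every library, but by less than 1 FPKM at the nearest points, and on the count scale used for testing the groups overlapped. The other ATPases averaged between 55.1 FPKM (Psmc6) and 185 FPKM (Psmc3). The ubiquitin receptor Psmd4 led the non-ATPase members. It had 139, 159 and 138 FPKM in synuclein libraries at 7 weeks, against 113, 154 and 174 FPKM in saline libraries. Psmd4 at 12 weeks had 163, 249 and 150 FPKM in synuclein libraries, against 125, 142 and 181 FPKM in saline libraries. The groups overlapped at both times. The other 10 non-ATPase members averaged between 47.6 FPKM (Psmd11) and 121 FPKM (Psmd7). Psmd10 (gankyrin), the highest chaperone, had 34.1, 22.6 and 16.2 FPKM in synuclein libraries at 7 weeks, against 23.6, 40.7 and 28.5 FPKM in saline libraries. At 12 weeks it had 24.7, 59.7 and 24.8 FPKM in synuclein libraries, against 28.8, 30.8 and 26.6 FPKM in saline libraries, so that 1 synuclein library stood above the rest of that group.

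The balance of core to cap among the members varied little. Summed FPKM of the core genes divided by that of the cap genes of the symbol pattern lay between 1.74 and 2.06 in the 12 libraries. The cap subunits Adrm1 and Shfm1 (mean 82.3 and 426 FPKM) lie outside the pattern and are not in this ratio. It averaged 1.96 ± 0.094 in synuclein and 1.93 ± 0.11 in saline libraries at 7 weeks, and 1.84 ± 0.11 in synuclein and 1.91 ± 0.036 in saline libraries at 12 weeks (SD, n = 3 each). The groups overlapped at both times, with 1.87 to 2.06 in synuclein against 1.84 to 2.05 in saline libraries at 7 weeks, and 1.74 to 1.96 in synuclein against 1.88 to 1.95 in saline libraries at 12 weeks. The summed CPM of all members was 4994 ± 367 in synuclein and 5581 ± 1004 in saline libraries at 7 weeks, and 5406 ± 292 in synuclein and 5052 ± 386 in saline libraries at 12 weeks (SD, n = 3 each).

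Members also varied less between libraries of a group than genes in general. The within-group SD of log2 CPM had a median of 0.27 over the members, against 0.60 over all genes tested and 0.34 over the 3491 other genes between 57.1 and 256 CPM, the range that holds most members. It was smallest for Psmb1 (0.16) and Psma3 (0.17), and largest for Psma8 (1.10), the weakly expressed member, and Psmd10 (0.48). These are descriptions without a test.

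The immune proteasome replaces the 3 catalytic subunits by Psmb8, Psmb9 and Psmb10, which interferon induces and which immune cells carry. These immune counterparts were present in every library and made up 15.5% to 34.3% of the summed FPKM of the 6 catalytic genes. That share averaged 27.3 ± 3.8% in synuclein and 24.8 ± 6.8% in saline libraries at 7 weeks, and 29.4 ± 7.9% in synuclein and 25.4 ± 8.7% in saline libraries at 12 weeks (SD, n = 3 each). The spread within each group exceeded the difference between groups, and it followed the replicate number. Replicate 1 had the lowest share in every group, with 23.2% in synuclein and 16.9% in saline libraries at 7 weeks. At 12 weeks it had 20.3% in synuclein and 15.5% in saline libraries. Replicates 2 and 3 held 28.0% to 34.3% over the groups. What the replicate numbers share was not tested. The ratio differed by subunit: Psmb9 had a median of 0.16 times the FPKM of Psmb6 over the 12 libraries (0.071 to 0.37), Psmb8 had 0.39 times that of Psmb5 (0.12 to 0.59), and Psmb10 had 1.21 times that of Psmb7 (0.42 to 2.26). Bulk RNA cannot tell whether these came from the same cells. Whether cells other than neurons, whose markers are given above, carried the immune subunits was not tested.

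**Figure D2:**
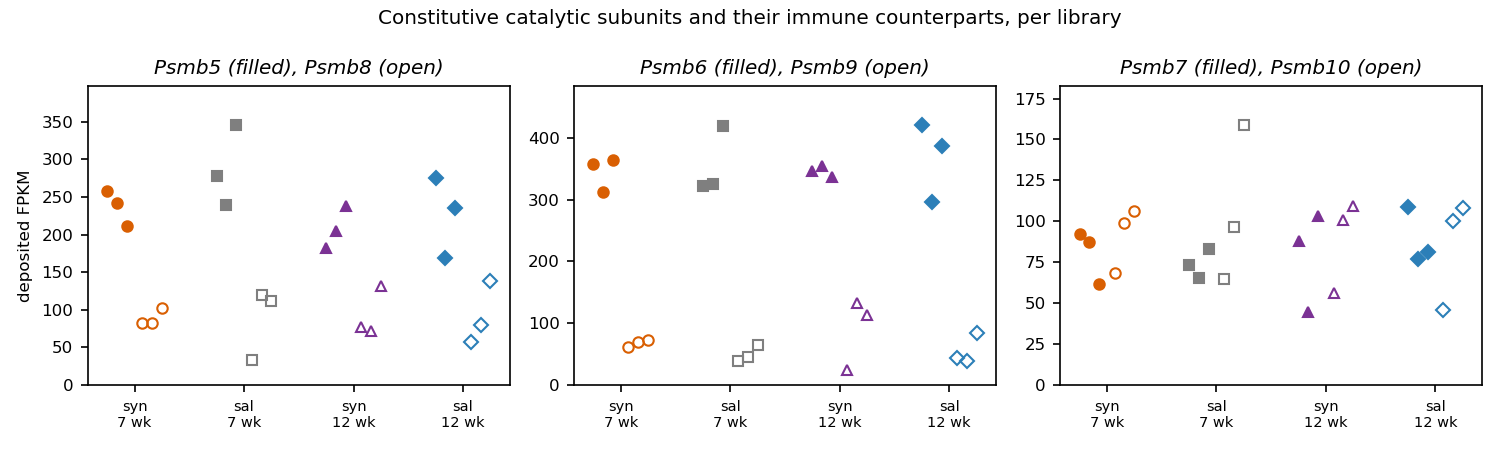
Deposited FPKM (linear axis from 0) of the constitutive catalytic subunits (filled) and their immune counterparts (open) in each library of the 4 groups. Psmb8 and Psmb9 lie below Psmb5 and Psmb6 in every library, while Psmb10 spans the range of Psmb7, with ratios from 0.42 to 2.26.

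At 7 weeks the proteasome genes did not pass the test between synuclein and saline. The 35 members had a median log2 fold of −0.17, with 8 higher and 27 lower in synuclein, against a median of 0.01 over all genes, of which 48.8% were lower. By edgeR's quasi-likelihood test 0 of 35 members were called at an adjusted p under 0.05 (0% of all genes were), 0 of 35 were by DESeq2 and limma-voom, and 0 of 35 had an unadjusted p under 0.05 (1.64% of all genes). The tilt towards lower values rested on 1 library: without saline replicate 3, in which 16 of 35 members had their highest CPM of the 12 libraries (9.12% of all genes did), the median was 0.04 and 20 members were higher. That library had the most estimated fragments and the lowest sum of oligodendrocyte markers (14771 CPM), and the part of either in the members' levels was not tested. In bulk libraries, fewer cells of a type and less RNA per cell cannot be told apart.

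By role, at 7 weeks all 6 ATPases had negative log2 folds (−0.32 to −0.16), as had 9 of 11 non-ATPase subunits, 6 of 8 alpha and 5 of 7 beta subunits. The 95% interval of the log2 fold lay within a 2-fold change either way for 31 of 35 members, so changes larger than that were outside the interval for these. Those of Psma8, Psmd7, Psmd9 and Psmd10 reached past that bound. Libraries of the groups did not overlap for 1 member higher in synuclein (Psmd9, 4.7% of all genes) and 4 lower (Psma1, Psma8, Psmc6 and Psmd7, 3.75% of all genes).

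The member with the smallest p among those higher at 7 weeks was Psmd9, a chaperone that helps assemble the ATPase ring. It had 65.7, 48.4 and 44.6 CPM in synuclein libraries, against 28.6, 35.8 and 39.6 CPM in saline libraries. The groups did not overlap, and the log2 fold was 0.61 ± 0.30 (SE; adjusted p = 0.999979 by edgeR). Among those lower it was Psmd7, a scaffold subunit that partners the deubiquitinase Psmd14. Psmd7 had 136, 131 and 133 CPM in synuclein libraries, against 149, 170 and 252 CPM in saline libraries. The log2 fold was −0.51 ± 0.26 (SE; adjusted p = 0.999979 by edgeR), and it was −0.25 without saline replicate 3, which held the highest value of the 6.

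At 12 weeks more members had higher than lower values in synuclein, and no member passed the test. The median log2 fold was 0.09, with 23 members higher and 12 lower in synuclein, against a median of −0.04 over all genes, of which 47.3% were higher. By edgeR's quasi-likelihood test 0 of 35 members were called (0% of all genes), and 0 of 35 by limma-voom and by DESeq2, which called 12 of all genes. At an unadjusted p under 0.05 there were 2 of 35 (5.57% of all genes), Psma1 and Psmd7, a share close to that of all genes. With upper-quartile scaling the split was 18 higher and 17 lower, with a median of 0.01. That scaling moved the median over all genes by −0.08. The members' median less that of all genes was 0.13 both there and as reported. Of the beta subunits 2 of 7 were higher, against 6 of 8 alpha subunits, 4 of 6 ATPases, 8 of 11 non-ATPase subunits and 3 of 3 chaperones. The 95% interval stayed within a 2-fold change for 30 of 35 members, and not for Psma1, Psma8, Psmd5, Psmd7 and Psmd10.

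**Figure D3:**
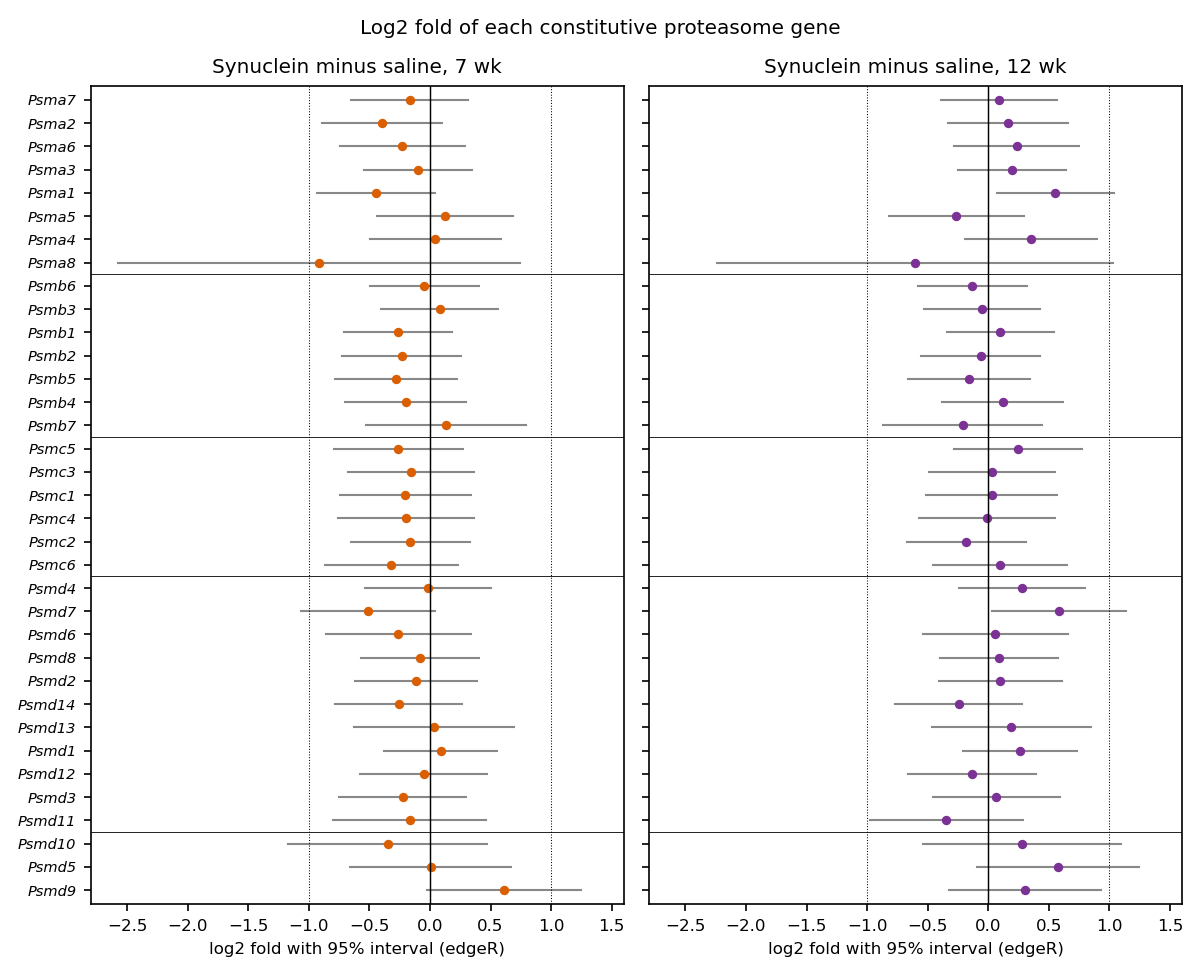
Log2 fold (synuclein minus saline) of each member at 7 weeks (left) and 12 weeks (right), with its 95% interval from edgeR. Dotted lines mark a 2-fold change and horizontal lines part the classes. At 7 weeks 27 of 35 points lie left of 0 and at 12 weeks 23 of 35 lie right of it, with 31 and 30 intervals inside the dotted lines.

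Psma1, a subunit of the alpha ring (chromosome 7, 114264550 to 114276116 as the files give it, read as mm10), had the smallest p at 12 weeks. It had 146, 221 and 170 CPM in synuclein libraries, against 123, 137 and 106 CPM in saline libraries. The groups did not overlap, and the log2 fold was 0.55 ± 0.23 (SE; adjusted p = 0.887 by edgeR). Replicate 2 held the highest value, as it did for 9 of 35 members among the 12 libraries (15.1% of all genes were highest there), and without it the log2 fold of Psma1 was 0.40 and the members' median 0.06. Psmd7 (chromosome 8, 107580380 to 107588482) had 225, 294 and 152 CPM in synuclein libraries, against 170, 146 and 132 CPM in saline libraries, with a log2 fold of 0.58 ± 0.26 (SE). Its groups overlapped, and the fold was 0.36 without synuclein replicate 2. It was 0.035 without synuclein replicates 1 and 2, a fit that leaves only replicate 3 in that group. Among those lower, the smallest p belonged to the lid subunit Psmd11, with 63.8, 51.8 and 64.3 CPM in synuclein libraries, against 73.7, 63.3 and 91.6 CPM in saline libraries. The log2 fold was −0.34 ± 0.30 (SE; adjusted p = 0.907 by edgeR). The groups overlapped, and the fold was −0.17 without saline replicate 3 and −0.22 without synuclein replicate 2. Non-overlapping groups were found for 2 members higher (Psma1 and the large scaffold subunit Psmd1, 4.01% of all genes) and 1 lower (the deubiquitinase Psmd14, 6.67% of all genes).

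The difference between the times was itself tested. Subtracting the synuclein effect at 7 weeks from that at 12 weeks gave a median log2 value of 0.23 over the members, with 27 positive and 8 negative, against a median of −0.05 over all genes, of which 47.4% were positive. The number called was 0 of 35 (0% of all genes) by edgeR's quasi-likelihood test, and 0 of 35 by DESeq2 and limma-voom. At an unadjusted p under 0.05 there were 2 of 35 (4.49% of all genes), Psma1 with 0.9996 ± 0.33 and Psmd7 with 1.10 ± 0.37 (log2, SE; adjusted p = 0.952 for each by edgeR). Of the negative ones, the smallest p was that of Psma5, another alpha subunit, with −0.39 ± 0.38 (log2, SE; adjusted p = 0.952 by edgeR). Psma5 had 120, 131 and 99.7 CPM in synuclein libraries at 7 weeks, against 72.7, 111 and 138 CPM in saline libraries. At 12 weeks it had 92.8, 103 and 147 CPM in synuclein libraries, against 147, 121 and 145 CPM in saline libraries, with both pairs overlapping. The value for Psma5 was −0.0069 without synuclein replicates 1 and 2 of 12 weeks, −0.14 without saline replicate 1 of 7 weeks and −0.19 without synuclein replicate 1 of 12 weeks. That for Psmd7 was 0.56 without synuclein replicates 1 and 2 of 12 weeks. For both genes that fit leaves only replicate 3 in the synuclein group of 12 weeks. This contrast has the widest errors, and the 95% interval lay within 2-fold for 16 of 35 members. Without saline replicate 3 at 7 weeks the median was 0.05, without saline replicate 1 at 7 weeks it was 0.42, and with upper-quartile scaling it was 0.09.

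**Figure D4:**
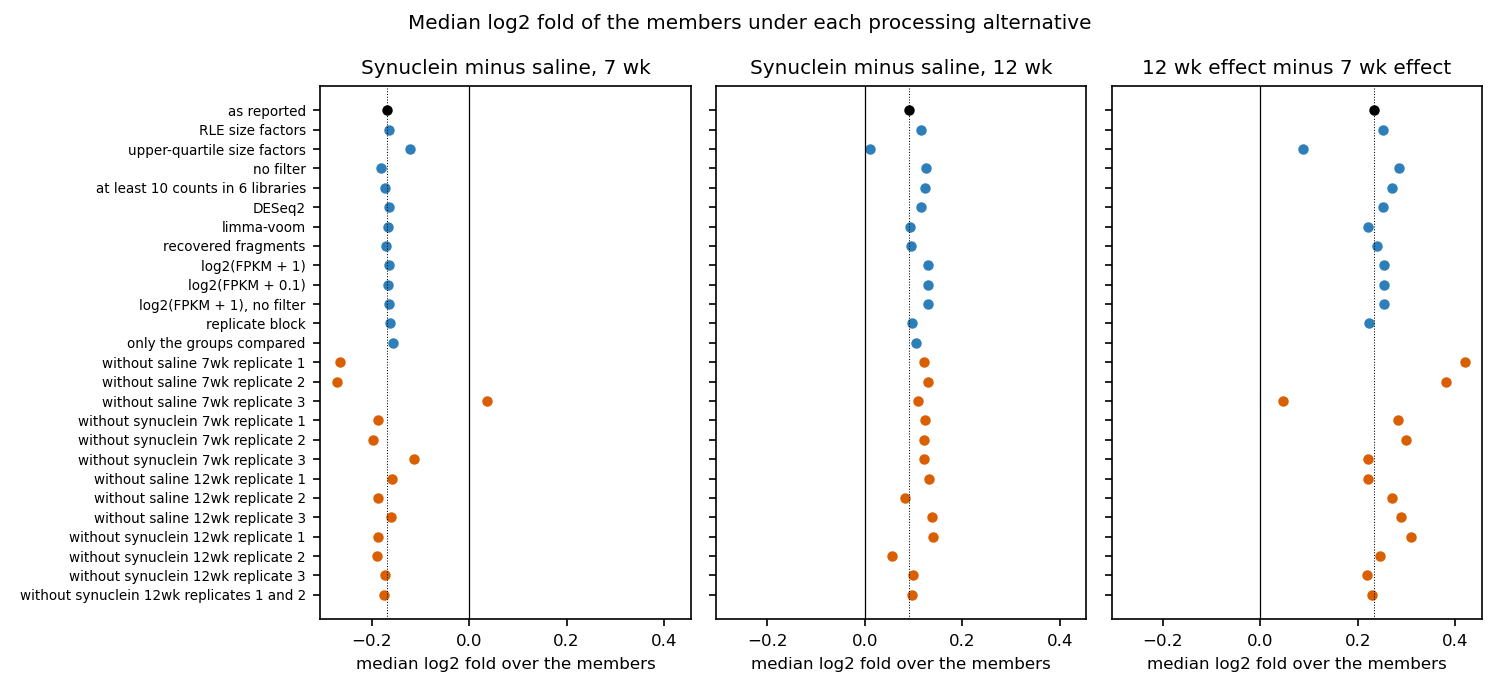
Median log2 fold over the members (horizontal axis, the same in all panels) for synuclein minus saline at 7 weeks, at 12 weeks, and the 12-week minus the 7-week effect, under each processing alternative (blue) and with libraries left out (orange); black is the value as reported. Leaving out saline replicate 3 at 7 weeks moves the 7-week median to 0.04 and the difference to 0.05.

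Averaged over both times, the members again did not pass the test between synuclein and saline. The median log2 fold was −0.04, with 12 members higher and 23 lower, against −0.01 over all genes, of which 51.7% were lower. The number called was 0 of 35 (0% of all genes) by edgeR's quasi-likelihood test, and 0 of 35 by limma-voom and by DESeq2, which called 3 of all genes. By edgeR 1 of 35 had an unadjusted p under 0.05 (2.48% of all genes). That member was Psmd9, with a log2 fold of 0.46 ± 0.21 (SE; adjusted p = 0.999974 by edgeR). At 12 weeks Psmd9 had 67.1, 55.1 and 48.5 CPM in synuclein libraries, against 48.4, 33.3 and 56.6 CPM in saline libraries, which overlap. Among those lower the smallest p was that of Psmd14, the deubiquitinase of the cap, with −0.25 ± 0.18 (log2, SE; adjusted p = 0.999974 by edgeR), or −0.16 without synuclein replicate 2 of 7 weeks. Psmd14 had 95.5, 63.8 and 86.3 CPM in synuclein libraries at 7 weeks, against 71.0, 113 and 110 CPM in saline libraries. At 12 weeks it had 73.3, 80.9 and 77.6 CPM in synuclein libraries, against 100.3, 89.5 and 85.0 CPM in saline libraries, where every synuclein library lay below every saline library. The 95% interval lay within 2-fold for 34 of 35 members, Psma8 being the exception.

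Between the times, no member passed the test in either treatment. Neuronal and oligodendrocyte markers moved with time. The neuronal markers (Snap25, Syt1, Stmn2 and Rbfox3) summed to 392 to 528 CPM in synuclein and 294 to 496 CPM in saline libraries at 12 weeks. At 7 weeks they summed to 639 to 1578 CPM in synuclein and 843 to 1128 CPM in saline libraries. The oligodendrocyte markers summed to 24523 to 35555 CPM in synuclein and 23689 to 40487 CPM in saline libraries at 12 weeks, against 15579 to 18711 CPM in synuclein and 14771 to 23504 CPM in saline libraries at 7 weeks. Neither sum overlapped between the times. Over both treatments, sums of dopaminergic, endothelial, microglial, astrocyte and ependymal markers did overlap. Those of dopaminergic neurons were 451 to 934 CPM at 12 weeks, against 539 to 2046 CPM at 7 weeks. The part of these shifts in the members' values was not tested. In saline mice the median log2 fold of 12 over 7 weeks was −0.10, with 9 members higher and 26 lower (49% of all genes were lower). By edgeR's quasi-likelihood test 0 of 35 were called (0% of all genes), and 0 of 35 by limma-voom and by DESeq2, which called 165 of all genes. At an unadjusted p under 0.05 there were 0 of 35, against 7.42% of all genes. With upper-quartile scaling 18 were higher and 17 lower. That scaling moved the median over all genes by 0.09. The members' median less that of all genes was −0.105 there, against −0.109 as reported. With 1 saline library left out the members' median lay between −0.22 (without replicate 1 of 7 weeks) and 0.02 (without replicate 3 of 7 weeks). The smallest p among those lower was that of Psmc5, with 216, 184 and 200 CPM at 12 weeks, against 282, 244 and 333 CPM at 7 weeks in saline libraries. The times did not overlap, as for Psma1 and Psma6, 3 members in all (7.83% of all genes were lower without overlap), and the log2 fold of Psmc5 was −0.52 ± 0.25 (SE; adjusted p = 0.688 by edgeR). Among those higher it was Psmd9, with 48.4, 33.3 and 56.6 CPM at 12 weeks, against 28.6, 35.8 and 39.6 CPM at 7 weeks, a log2 fold of 0.41 ± 0.30 (SE; adjusted p = 0.843 by edgeR) that was 0.26 without saline replicate 3 of 12 weeks.

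In synuclein mice the median log2 fold of 12 over 7 weeks was 0.09, with 23 members higher and 12 lower (45.8% of all genes were higher). The median was 0.040 without synuclein replicate 3 and 0.20 without replicate 1 of 7 weeks. By edgeR's quasi-likelihood test 0 of 35 were called (0% of all genes), and 0 of 35 by limma-voom and by DESeq2, which called 82 of all genes. Psmd7 and Psma1, 2 of 35, had an unadjusted p under 0.05 (7.58% of all genes). Psmd7 had 225, 294 and 152 CPM at 12 weeks, against 136, 131 and 133 CPM at 7 weeks. The times did not overlap, and the log2 fold was 0.75 ± 0.26 (SE; adjusted p = 0.512 by edgeR). Replicates 1 and 2 at 12 weeks, the 2 that stand apart, held its 2 highest values. The log2 fold was 0.19 without them, with only replicate 3 left in that group. Among those lower, the lid subunit Psmd12 had 73.3, 80.6 and 66.9 CPM at 12 weeks, against 112, 113 and 72.0 CPM at 7 weeks, a log2 fold of −0.42 ± 0.25 (SE; adjusted p = 0.755 by edgeR). Psma1, Psmd7 and Psmd8 were the 3 members higher without overlap (5.13% of all genes).

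**Figure D5:**
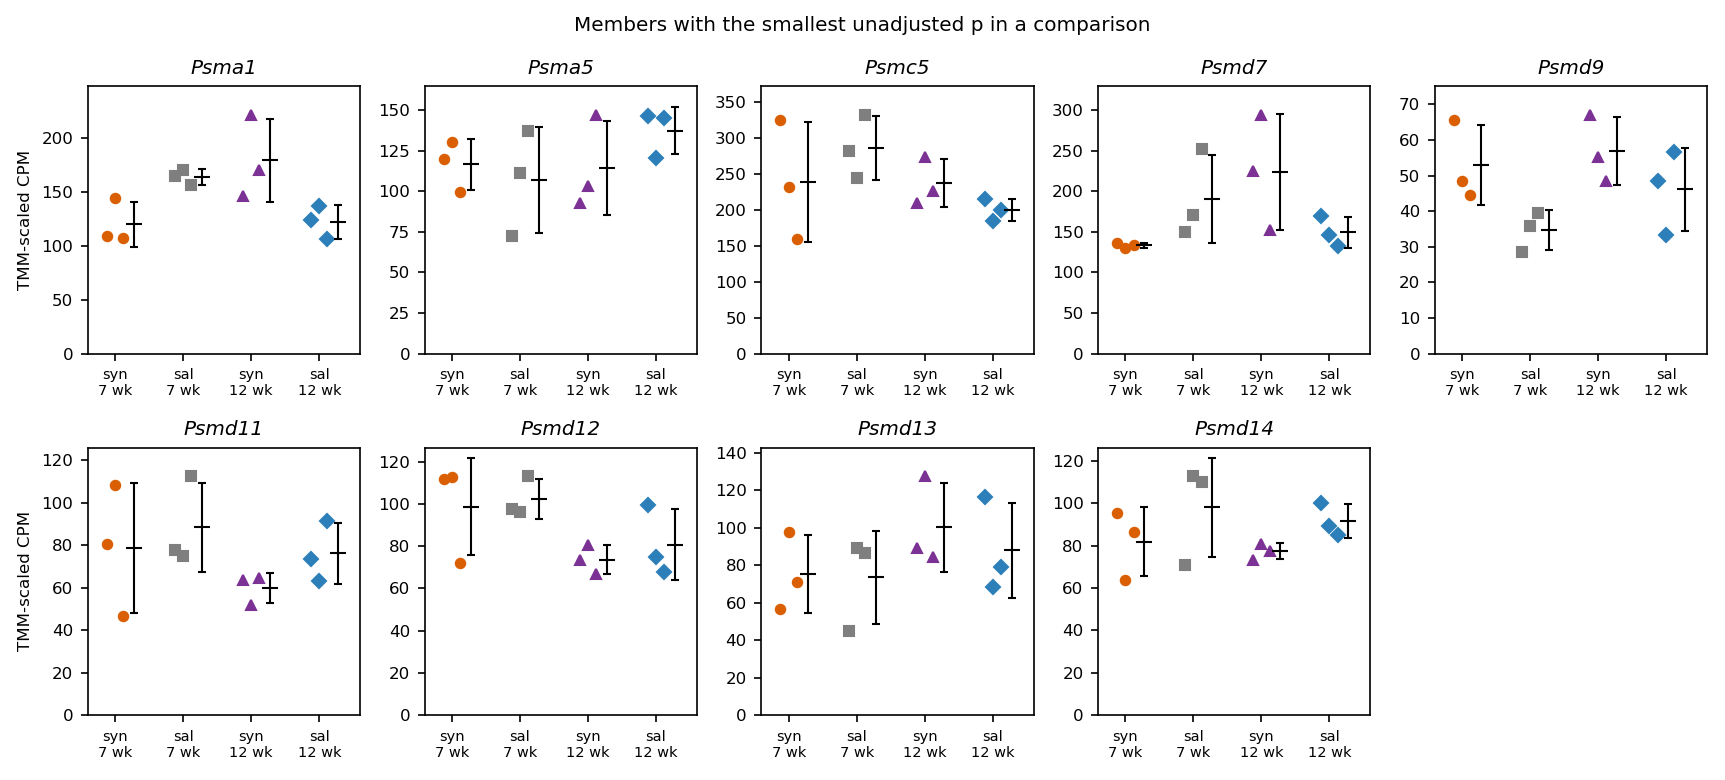
TMM-scaled CPM (linear axes from 0) of the 9 members with the smallest unadjusted p in a comparison. Symbols are the 3 libraries of each group, and the black mark beside them is the mean with its SD. Psma1 lies lower in synuclein (syn) than in saline (sal) libraries at 7 weeks and higher at 12 weeks, and Psmd12 is lower on average at 12 weeks in both treatments.

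Averaged over both treatments, 12 weeks against 7 weeks was the comparison in which genes elsewhere passed the test: edgeR's quasi-likelihood test called 145 of 17380 (0.834%), and 0 of the 35 members. DESeq2 called 468 genes and limma-voom 133, and again 0 of the 35 members. The members' median log2 fold was 0.04, with 21 higher and 14 lower, against −0.03 over all genes, of which 47% were higher. With 1 library left out it lay between −0.01 and 0.11. At an unadjusted p under 0.05 there was 1 of 35 (9.82% of all genes), Psmd12 with −0.38 ± 0.18 (log2, SE; adjusted p = 0.483 by edgeR). In saline libraries Psmd12 had 99.5, 74.7 and 67.8 CPM at 12 weeks, against 97.6, 96.3 and 113 CPM at 7 weeks, which overlap. The lid subunit Psmd13 led those higher, with 0.34 ± 0.22 (log2, SE; adjusted p = 0.728 by edgeR). Psmd13 had 89.1, 128 and 84.2 CPM in synuclein libraries at 12 weeks, against 56.7, 97.9 and 70.9 CPM at 7 weeks, and 117, 68.1 and 79.0 CPM in saline libraries at 12 weeks, against 44.9, 89.4 and 86.4 CPM at 7 weeks. Both pairs overlapped, and the log2 fold was 0.22 without saline replicate 1 of 7 weeks. It was 0.21 without synuclein replicates 1 and 2 of 12 weeks, which leaves only replicate 3 in that group. The 95% interval of the log2 fold lay within 2-fold for 34 of 35 members.

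Other genes that belong to the proteasome or act beside it did not pass the test either. They were the immune and thymic subunits, the cap subunits Adrm1 and Shfm1, activators and an inhibitor, and assembly chaperones outside the symbol pattern. Enzymes and shuttles bound to the cap, ubiquitin genes, an unfoldase with its cofactors, and genes of transcriptional control were also listed. Of 38 listed, 37 matched the tables and were tested, and 0 were called in any of the 7 comparisons by edgeR's quasi-likelihood test. Of all genes 0.834% were called for 12 against 7 weeks over both treatments, and 0% in the other comparisons. At 7 weeks 15 were higher and 22 lower in synuclein (median log2 fold −0.08), where 48.8% of all genes were lower. At 12 weeks 26 were higher and 11 lower (0.11), where 47.3% of all genes were higher. At an unadjusted p under 0.05 there were 0 of 37 at either time, against 1.64% of all genes at 7 weeks and 5.57% at 12 weeks. The core assembly factor Pomp was the most abundant of the chaperones outside the symbol pattern (mean 604 FPKM), and the ubiquitin gene Ubb of all 37 (1603 FPKM). All 4 ubiquitin genes had negative log2 folds at 7 weeks (median −0.22), and 3 of the 4 had positive ones at 12 weeks (median 0.14). Nfe2l1 and the related factor Nfe2l2 averaged 47.2 and 34.9 FPKM. In 12 against 7 weeks over both treatments, 2 of 37 had an unadjusted p under 0.05 (9.82% of all genes): the nuclear activator subunit Psme3 with −0.58 ± 0.20 and the cap-bound deubiquitinase Usp14 with −0.46 ± 0.20 (log2, SE; adjusted p = 0.253 and 0.425 by edgeR).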

How the data were processed

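RNA of 12 libraries was amplified with the SMARTer Ultra-Low kit, per the labels' protocols. TopHat2 2.0.13, Bowtie2 2.2.3 and Cufflinks 2.2.1 are named in the submitters' processing notes, with no genome build stated. The authors deposited estimated counts and FPKM per gene. In each library 98.9% to 99.2% of the deposited estimated counts were whole multiples, within 0.02 fragments, of 1 step. Counts of 0, which are multiples of any step, are included in that share. The step lay between 0.685 and 1.30, and was read as the factor by which the library had been scaled. That reading is inferred from the values. Dividing by the step gave the estimated fragments per library, and a test on these called 142 genes between the times, against 145 on the values as deposited.

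Coordinates are as deposited, counted from 1, and 25 of 35 members lay within 1000 bases of both ends in GENCODE M21 (mm10). Rows of 5 members overlap other genes (Psma3, Psma4, Psma6, Psmb5 and Psmd1), so their counts are less certain.

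Estimated counts were rounded and tested in edgeR 4.0.16 (R 4.3.3) by the quasi-likelihood test after filterByExpr and TMM scaling. Each of the 4 groups had 1 mean, over 17380 genes (common biological coefficient of variation 46.6%, 8 residual degrees of freedom). The Benjamini-Hochberg adjustment ran over every gene tested, and genes under 0.05 were called. Sets were described by counts and medians, without a test. Alternatives were RLE and upper-quartile scaling, no filter or at least 10 counts in 6 libraries, DESeq2 1.42.0, limma-voom (limma 3.58.1), the fragments, log2(FPKM + 1) and log2(FPKM + 0.1), a replicate block, a fit of the groups compared, and libraries left out.

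The members, lists and tests were chosen with earlier results of these data known. Values per library are given for Psmb5, Psmb6 and Psmb7, the highest member of each class and, with none called, the member with the smallest p in each direction of a comparison. Promoter sequences are from RefSeq.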

Additional observations from a re-analysis of the deposited data

Results flagged for a closer look

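Psma1 lay lower in every synuclein library than in every saline library at 7 weeks, and higher in every synuclein library than in every saline library at 12 weeks, which is why it is listed here. It had 109, 144 and 107 CPM in synuclein libraries at 7 weeks, against 165, 170 and 156 CPM in saline libraries, and at 12 weeks the synuclein libraries held 146 to 221 CPM, against 106 to 137 CPM in saline libraries. The log2 fold was −0.45 ± 0.23 at 7 weeks and 0.55 ± 0.23 at 12 weeks (SE). The test of the difference gave 0.9996 ± 0.33 (log2, SE; adjusted p = 0.952 by edgeR), which did not pass over 17380 genes. Of all genes tested, 35 (0.201%) showed this pattern. Under the 24 alternatives the difference lay between 0.86 and 1.19. Groups of 3 libraries are too small for a test of single outlying libraries.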

How the results depend on the processing

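The number of members called was 0 of 35 in all 7 comparisons under every alternative run. The medians stayed within the spread between libraries (0.15, the within-group SD of the members' mean log2 CPM) except where saline libraries of 7 weeks were left out. With 1 library left out at a time, the median log2 fold ranged from −0.27 to 0.036 for synuclein against saline at 7 weeks, and from 0.047 to 0.42 for the difference between the times. Without saline replicate 3 at 7 weeks, synuclein against saline over both times had a median of 0.05, with 23 members higher. None of the 17 folds of members with the smallest p in a direction, or an unadjusted p under 0.05, changed sign under an alternative run, though that of Psma5 came to −0.0069. Upper-quartile scaling moved the median over all genes by −0.13 in the difference between the times and limma-voom by −0.11; the members' median less that of all genes was 0.27 and 0.39 there, against 0.28 as reported.

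Counts of all genes called moved more than those of the members. For 12 against 7 weeks over both treatments, DESeq2 called 468 genes, against 145 as reported. No gene was called on log2(FPKM + 1), 2 on log2(FPKM + 0.1), and 24 to 214 with 1 library left out. DESeq2 called 165 genes between the times in saline, 82 in synuclein, 12 for synuclein against saline at 12 weeks and 3 over both times, where edgeR called 0. In saline, edgeR called 49 genes when fitted on both saline groups alone and 7 with no filter. The cause was not tested.

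Over 18 pairs of libraries with the same replicate number, the correlation of deviations from the group means lay between −0.06 and 0.11 (median 0.035). Over 36 pairs with other numbers it lay between −0.16 and 0.11 (median −0.027). Whether libraries of the same number share a batch was not tested. With a replicate block, 0 members were called in any comparison, with a median of −0.16 at 7 weeks and 0.10 at 12 weeks. The block gave 246 genes called between the times over both treatments and 34 in saline, against 145 and 0 without it.

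Depth limits Psma8 most, with 3 fragments in its lowest library. The next lowest count of a member in any library was 56 fragments (Psmd10).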
